A study of Homo sapiens with 24 samples.

Results

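The genes described here were the 27 of 28277 counted genes that were read well in untreated PEO1 cells and hardly at all in untreated PEO4 cells, in both of the untreated pairs that were sequenced. PEO1 and PEO4 are high-grade serous ovarian carcinoma lines from a single patient, taken before and after the tumour became resistant to chemotherapy. The members were chosen by their CPM (a gene's reads per 1000000 reads counted in its library): a mean of at least 5 CPM in both untreated PEO1 groups and of at most 0.5 CPM in both untreated PEO4 groups. Of the 28277 genes, 10506 had at least 5 CPM in both untreated PEO1 groups. A further 8 genes met the thresholds and were left out by symbol, namely the HOX genes, one collagen gene and the imprinted gene PEG3. Because the untreated libraries selected the members, the untreated levels in the lines are given as a description, with no test.

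Polyadenylated RNA was sequenced from 24 libraries in 8 groups of 3 replicates. PEO1 A was the original line, which lacks BRCA2 function, and PEO4 A was its BRCA2-proficient partner; both were untreated. PEO1 B carried the genotype BRCA2+, a spontaneous reversion that restored BRCA2, and was sequenced with PEO4 B before treatment and after 2 and 6 h in 5 µM pyridostatin (PDS), a small molecule that binds and stabilises G-quadruplexes. A G-quadruplex is a 4-stranded structure that G-rich DNA can fold into. PEO4, with the genotype label WT in both pairs, is itself BRCA2-proficient through a reversion, all groups were cultured lines from 1 patient, and PEO1 B, being a reverted line, could differ from PEO1 A in more than BRCA2. PEO1 A and PEO4 A were grown with added sodium pyruvate, so the pairs differed in medium as well as in genotype.

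The products of the members belong to several unrelated systems. Among them are transcription factors that pattern tissues in the embryo (MEIS2, FOXF2, TSHZ3, TBX3), enzymes that start or extend the sugar chains of the extracellular matrix (XYLT1, HAS2), and proteins best known from neurons and synapses (CBLN1, ELFN2, SLC6A17, CALB2). Hyaluronan made by HAS2 can form a coat around the cell, and sphingosine 1-phosphate acting on S1PR1 can guide migration.

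Since PDS binds G-quadruplexes, the 250 bases before the transcription start listed for the promoter were read for a G-quadruplex motif. The motif was 4 runs of GGG with 1 to 7 bases of any kind between runs, on either strand (on the other strand the runs read CCC). Promoters from RefSeq on GRCh38.p14 were matched for 19 of the 27 members, and those of CBLN1, LPL, LINC00958, TBX3, HAS2, CDYL2 and CALB2 were among those not matched. The windows of CDH4, TSHZ3, MEIS2 and EPB41L3 lay inside the bounds of the gene, and that of S1PR1 crossed the start of the gene. The motif was held by 7 of the 19 (36.8%), namely PLCXD3, ELFN2, FOXF2, TSHZ3, SLC6A17, ATP8A2 and CREG2, against 33.1% of 8496 promoters of genes with at least 5 CPM in both untreated PEO1 groups and 22.5% of all 27305 promoters. The motif was therefore held by the members at a share near that of other genes these cells express. Shown here are 2 members that fell in PEO1 B after PDS (ATP8A2, CREG2), 1 that rose from near 0 in PEO4 B (PLCXD3), 1 that stayed at 0 there (XYLT1) and 1 that rose late (NEXN), with the motif in capitals where it was found.
ATP8A2 promoter, chr13:25371724-25371973, plus strand: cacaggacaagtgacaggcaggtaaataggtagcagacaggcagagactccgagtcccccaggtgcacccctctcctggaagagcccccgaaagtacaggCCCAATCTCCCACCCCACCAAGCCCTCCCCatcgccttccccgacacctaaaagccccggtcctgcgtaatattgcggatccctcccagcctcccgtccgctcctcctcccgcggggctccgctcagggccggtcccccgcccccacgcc
CREG2 promoter, chr2:101387504-101387753, minus strand: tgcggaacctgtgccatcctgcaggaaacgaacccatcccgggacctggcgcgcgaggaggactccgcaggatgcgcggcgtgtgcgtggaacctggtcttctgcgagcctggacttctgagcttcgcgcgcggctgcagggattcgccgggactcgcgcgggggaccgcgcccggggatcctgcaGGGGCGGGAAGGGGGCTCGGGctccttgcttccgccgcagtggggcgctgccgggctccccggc
PLCXD3 promoter, chr5:41510602-41510851, minus strand: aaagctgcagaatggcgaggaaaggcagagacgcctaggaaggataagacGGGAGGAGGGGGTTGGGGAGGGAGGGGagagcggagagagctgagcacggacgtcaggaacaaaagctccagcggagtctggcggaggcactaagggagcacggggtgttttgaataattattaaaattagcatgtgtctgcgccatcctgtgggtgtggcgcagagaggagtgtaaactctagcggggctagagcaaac
XYLT1 promoter, chr16:17470961-17471210, minus strand: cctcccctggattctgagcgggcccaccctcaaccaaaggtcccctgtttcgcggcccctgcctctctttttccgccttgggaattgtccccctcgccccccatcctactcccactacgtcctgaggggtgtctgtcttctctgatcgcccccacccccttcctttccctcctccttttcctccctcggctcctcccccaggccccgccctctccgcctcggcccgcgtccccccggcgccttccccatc
NEXN promoter, chr1:77888374-77888623, plus strand: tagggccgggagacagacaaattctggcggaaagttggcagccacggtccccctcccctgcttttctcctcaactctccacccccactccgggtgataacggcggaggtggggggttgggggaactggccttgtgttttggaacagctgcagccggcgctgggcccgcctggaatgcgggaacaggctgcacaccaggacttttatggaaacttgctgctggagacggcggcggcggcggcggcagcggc
No motif was found in the windows of XYLT1 and NEXN, which says only that these letters are absent from those bases. A TATAAA box, searched on the coding strand, was held by 1 of the 19 (VWA2), against 2.81% of promoters of expressed genes, and a ratio of observed to expected CpG of at least 0.6 was held by 16 of the 19 (84.2%) against 84.0%.

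The A libraries held 32528913 to 63882077 counts, the untreated B libraries 18699929 to 22375644 and the PDS-treated B libraries 33260167 to 43713947. Ribosomal RNA genes took 0.217 to 0.474% of counts in the untreated B libraries and 0.0164 to 0.0369% in the treated ones, so depth and this share moved with treatment, and library preparation and PDS cannot be told apart. Of 10 markers of ovarian carcinoma epithelium, 9 had at least 5 CPM in every group (SOX17 was near 0), while the endothelial genes PECAM1, VWF and CDH5 had means of at most 1.34 CPM in each group. Of 5 immune markers, 1 or 2 had at least 5 CPM in each group: CD68 had means of 24.8 to 70.9 CPM, CD14 reached 5.78 CPM, and the pan-leukocyte gene PTPRC and the T cell gene CD3E were at or near 0. Together the immune markers took 28.5 to 47.5 CPM in PEO1 libraries and 31.0 to 82.1 CPM in PEO4 libraries. CALB2 is itself a marker of mesothelium; of the other mesothelial markers, UPK3B was higher in untreated PEO4 and DES was near 0. Of 7 stromal markers, 2 had at least 5 CPM in PEO1 (FAP and THY1) and 1 in PEO4 (THY1), and together they took 119.0 to 413.1 CPM in PEO1 libraries and 8.22 to 99.4 CPM in PEO4 libraries. DCN and LUM were near 0 in all groups, and the part of a mixture of cells was not tested. Replicate 1 of PEO4 A stood apart from the other two, with a chi-square per degree of freedom of 52.1 and 44.5 against them and of 9.50 between them, and the rule chose the same 27 genes with replicate 1 left out of each untreated group.

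Together the members took 519.5 to 537.3 CPM in each PEO1 A library and 2.18 to 2.44 CPM in each PEO4 A library. In untreated PEO1 B they took 406.1 to 434.5 CPM, and in untreated PEO4 B 2.96 to 5.46 CPM. No untreated PEO4 library held more than 34 reads of any member, and 7 members in PEO4 A and 4 in PEO4 B had none. In bulk RNA, fewer cells with a transcript and less of it per cell cannot be told apart. EPB41L3 (protein 4.1B, which links membrane proteins to the cytoskeleton) and XYLT1 (which starts glycosaminoglycan chains) had 0 reads in all 12 PEO4 libraries, treated ones included. The floor of 3 counts per library, which covers counting error only, put EPB41L3 at least 269-fold lower and XYLT1 at least 321.8-fold lower in PEO4 B than in PEO1 B at 2 h.

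**Figure D1:**
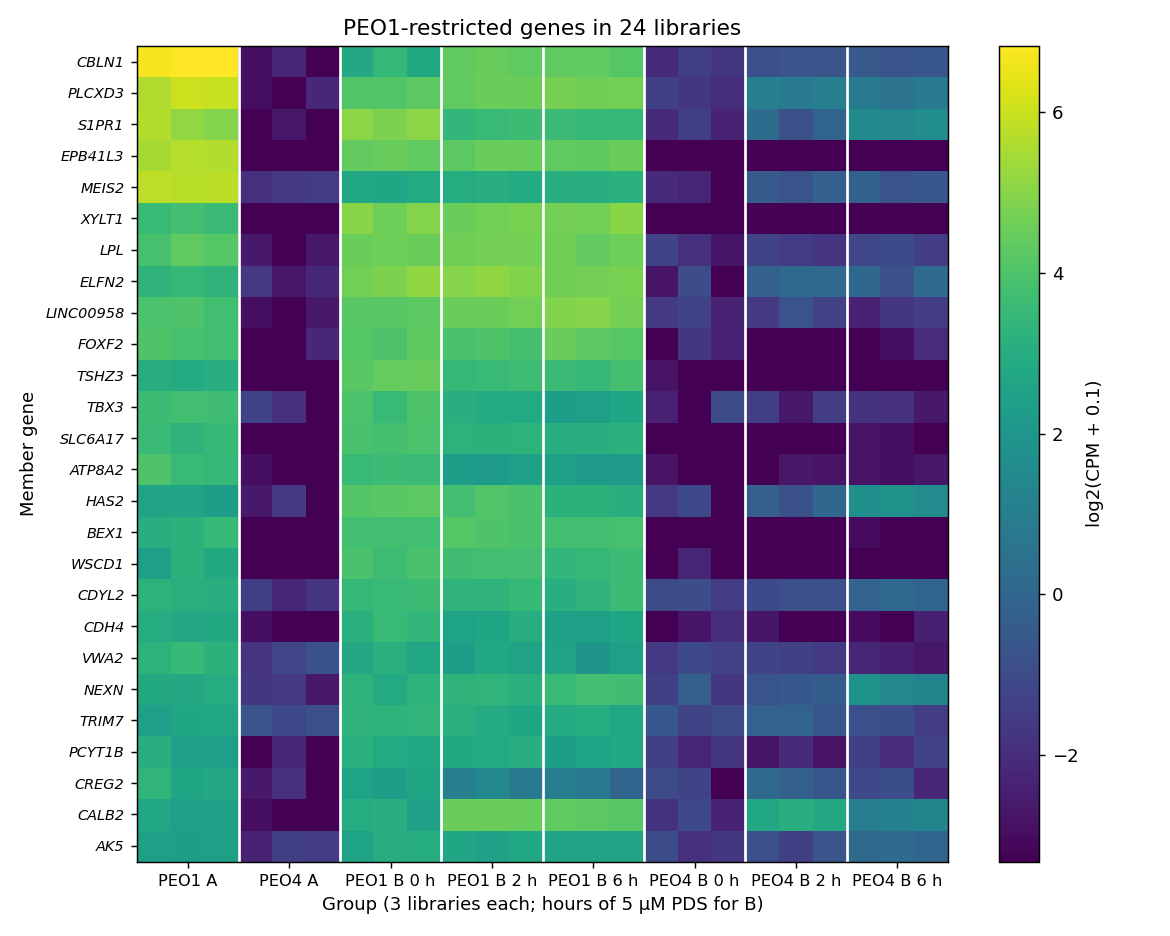
Level of 26 of the 27 members (rows, from highest to lowest mean over the untreated PEO1 groups) in the 24 libraries (columns, 3 for each group), as log2(CPM + 0.1) in colour. In each row the untreated PEO4 libraries are darker than the PEO1 libraries, and a few rows such as CALB2, S1PR1 and HAS2 brighten in PDS-treated PEO4 B, where CALB2 at 2 h (6.53 to 8.08 CPM) is above PEO1 A.

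The members just inside the thresholds were AK5 (5.27 CPM in PEO1 A), HAS2 (5.65) and CALB2 (5.69), and the genes just outside were CNTNAP2 and PAPPA at 4.56 and 3.93 CPM. In PEO1 B the nearest inside were CREG2, MEIS2 and CALB2 at 5.65, 6.77 and 7.09 CPM, with DACT1, SHOX2 and TNFRSF19 outside at 4.19, 4.09 and 3.75 CPM. On the PEO4 side the nearest inside in PEO4 A were TRIM7, VWA2 and MEIS2 at 0.453, 0.339 and 0.209 CPM, and the nearest outside were PROM1, DOCK10 and NR2F1 at 0.528, 0.589 and 0.719 CPM. In PEO4 B they were TRIM7, NEXN and CDYL2 at 0.439, 0.408 and 0.363 CPM inside, and ARHGAP24, TRABD2A and ZNF469 at 0.548, 0.579 and 0.596 CPM outside.

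Levels of the members in PEO1 differed between the 2 untreated PEO1 groups. The synaptic organizer CBLN1 (chr16:49277917-49281838) was read at 102, 111 and 113 CPM in PEO1 A and at 6.82, 10.8 and 7.04 CPM in untreated PEO1 B. The homeobox factor MEIS2 (chr15:36889204-37101311) was read at 56.0, 53.2 and 54.0 CPM in PEO1 A and at 6.72, 6.08 and 7.51 CPM in PEO1 B. Both were higher in every PEO1 A library than in any PEO1 B library. PLCXD3, a protein with the catalytic X domain of phospholipase C, showed the same order with means of 59.1 and 17.4 CPM, as did EPB41L3 with 48.3 and 21.0 CPM. The opposite order was seen for the matrix enzymes HAS2 (means of 5.65 CPM in A and 18.4 CPM in B) and XYLT1 (12.4 and 29.0 CPM), for the postsynaptic protein ELFN2 (9.98 and 29.7 CPM) and for the teashirt factor TSHZ3 (7.84 and 20.4 CPM). In all, 6 members were above in every A library, 14 in every B library and 7 overlapped, where 47.1% and 31.1% of the 10506 genes with at least 5 CPM in PEO1 were so placed. The tables of the pairs were made separately, and pair, medium and BRCA2 status cannot be told apart.

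**Figure D2:**
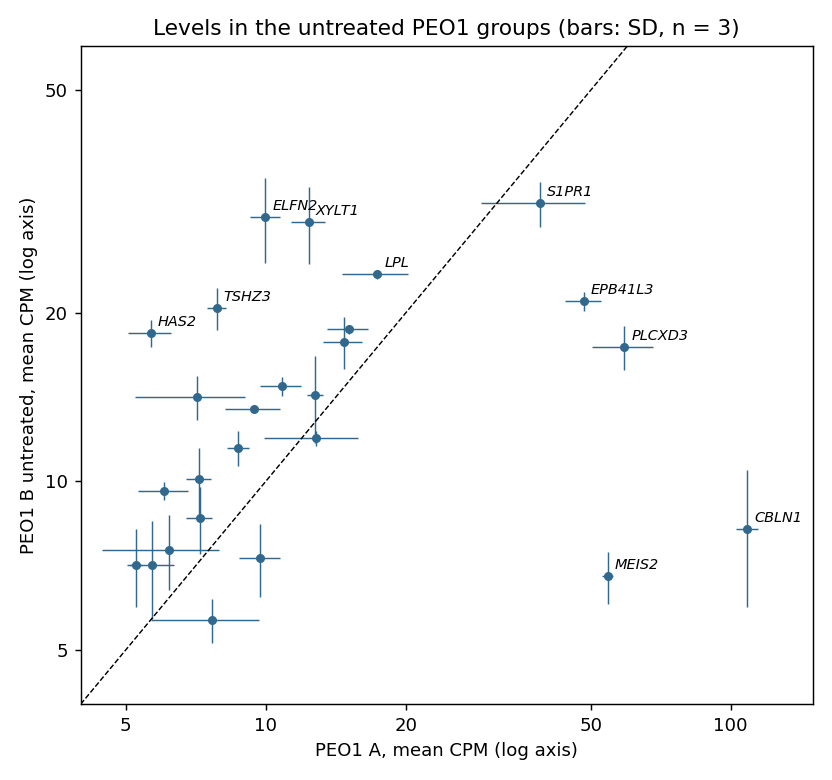
Mean CPM of 26 of the members in untreated PEO1 A (horizontal, log axis) against untreated PEO1 B (vertical, log axis), with bars for the SD over 3 replicates and a dashed line of equality. CBLN1 and MEIS2 lie far to the right of the line, and ELFN2, XYLT1, TSHZ3 and HAS2 well above it.

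By role, the members held MEIS2, FOXF2, TSHZ3 and TBX3, which are 4 of 134 genes with at least 5 CPM in PEO1 in a list of transcription factors without HOX genes or symbols such as ZNF (TSHZ3 has zinc fingers too), 3 genes of the extracellular matrix and its enzymes (XYLT1, HAS2 and the matrix protein VWA2, of 101), 2 transporters (SLC6A17, a neutral amino acid transporter of synaptic vesicles, and the phospholipid flippase ATP8A2, of 223) and 2 cytoskeletal genes (EPB41L3 and the F-actin binding NEXN, of 239). There was 1 each among adhesion genes (CDH4, R-cadherin, of 87), receptors (S1PR1, of 166) and non-coding RNA genes (LINC00958, of 120). A further 12, in no list, were CBLN1, PLCXD3, LPL (lipoprotein lipase), ELFN2, BEX1, WSCD1, CDYL2 (a chromodomain protein), TRIM7 (a ubiquitin ligase), PCYT1B (phosphatidylcholine synthesis), CREG2, CALB2 (calretinin, a calcium buffer) and AK5 (an adenylate kinase). Per kilobase of the canonical transcript, the highest mean in PEO1 A was that of CBLN1 (44.5 CPM per kb) and the lowest that of CDYL2 (1.04 CPM per kb). In untreated PEO1 B the highest was the short gene BEX1 (17.0 CPM per kb) and the lowest CREG2 (0.898 CPM per kb).

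Of 17 families of relatives, chosen after the members were known, 12 held a gene with at least 5 CPM in both untreated PEO4 groups and 5 did not, the hyaluronan synthases, FOXF factors, PLCXD genes and lipases of the LPL family among the latter. Untreated PEO4 A and PEO4 B held XYLT2 at 47.5 and 40.3 CPM against 0 for XYLT1, and MEIS1 at 323.0 and 126.2 CPM against 0.209 and 0.0813 CPM for MEIS2. The S1P receptor S1PR3 stood at 37.4 and 35.3 CPM in PEO4. HAS3 was at 2.54 CPM in PEO4 A and 21.2 CPM in PEO4 B, and FOXF1 was near 0 in both lines.

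The members lay on 17 chromosomes, with 4 each on chromosomes 1 and 16. AK5 and NEXN were the nearest pair, with 328658 bases between them on chromosome 1, and no other members were within 500 kb of each other. Of the 54 nearest genes expressed in PEO1 on either side of a member, 50 (92.6%) had at least 5 CPM in both untreated PEO4 groups, a share near the 94.3% of all 10506 such genes. None of the 54 was at or below 0.5 CPM in both, and for 23 members the genes on both sides were at 5 CPM or more in PEO4.

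After PDS, 5 members of 27 were called in PEO1 B at 2 h and 6 at 6 h. A call was an adjusted p under 0.05 with a fold over 2 in edgeR's quasi-likelihood test, fitted to 17020 genes in the 18 B libraries with all 27 members among them. CALB2 and CBLN1 rose at both times, ATP8A2, S1PR1 and CREG2 fell at both, and TBX3 fell at 6 h. Higher calls were made for 2 members at each time, beside 1.18% of all genes at 2 h and 1.29% at 6 h. Lower calls were made for 3 and 4 members (11.1% and 14.8%), beside 6.39% and 6.83% of all genes. Over the 27, the log2 fold changes had a median of −0.05 at 2 h and −0.06 at 6 h, near the −0.03 of all genes at both. These comparisons share the untreated libraries that selected the members for high reads in PEO1, which favours a fall.

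CALB2 (chr16:71358723-71390433) was read at 7.64, 8.13 and 5.50 CPM before PDS, at 22.3, 23.5 and 22.1 CPM after 2 h and at 20.3, 19.3 and 18.3 CPM after 6 h. Every treated library lay above every untreated one, with log2 fold changes of 1.82 ± 0.12 (SE) at 2 h (adjusted p = 1.5e-11) and 1.59 ± 0.12 at 6 h (adjusted p = 1.1e-10) (edgeR, quasi-likelihood, Benjamini-Hochberg). CBLN1 was read at 6.82, 10.8 and 7.04 CPM, then at 19.99, 22.1 and 20.3 CPM, and at 19.96, 20.3 and 17.7 CPM at 6 h. It rose by 1.48 ± 0.12 at 2 h (adjusted p = 4.1e-10) and 1.37 ± 0.12 at 6 h on the log2 scale, and stayed far below its level in untreated PEO1 A.

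S1PR1 (chr1:101236899-101242313) was read at 33.3, 28.1 and 32.8 CPM before PDS, at 10.3, 11.4 and 12.2 CPM after 2 h and at 11.99, 10.6 and 10.8 CPM after 6 h. Its libraries did not overlap, and it fell by 1.32 on the log2 scale at 2 h (SE 0.12, adjusted p = 1.6e-09, edgeR) and by 1.35 at 6 h. The flippase gene ATP8A2 (chr13:25371974-26025851) was read at 11.5, 12.2 and 12.1 CPM, then at 4.96, 4.59 and 5.46 CPM, and at 5.40, 4.61 and 4.40 CPM at 6 h, a fall by 1.11 and 1.17. CREG2, a secreted glycoprotein gene (chr2:101345550-101387503), was read at 5.75, 5.09 and 6.11 CPM, then at 2.01, 2.56 and 1.71 CPM, and at 1.84, 1.68 and 0.885 CPM at 6 h. It fell by 1.28 and then by 1.79, the steepest of the members' falls at 6 h. The transcription factors did not move together: TBX3, a T-box repressor, was read at 15.2, 11.4 and 16.2 CPM, then at 8.15, 7.48 and 7.34 CPM, and at 4.98, 5.40 and 6.11 CPM at 6 h. TBX3 fell by 1.23 at 6 h (SE 0.19, adjusted p = 1.1e-05, edgeR), while the change at 2 h was −0.75, below the fold asked for. FOXF2, the forkhead gene among the members, had log2 fold changes of −0.08 and 0.29, MEIS2 of 0.37 and 0.45, and TSHZ3 of −0.66 and −0.58.

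By the adjusted p alone, 8 members were higher and 7 lower at 2 h, beside 26.4% and 26.2% of all genes, and 6 were higher and 9 lower at 6 h, beside 27% and 26%, which is near the background. Among them was HAS2, with 17.3, 18.8 and 19.2 CPM before PDS, 13.8 to 16.5 CPM at 2 h and 9.18, 8.997 and 8.42 CPM at 6 h. Its log2 fold change was −0.91 at 6 h, short of the call. The lincRNA LINC00958 had 18.5, 18.6 and 19.1 CPM before, 22.7, 23.0 and 25.3 CPM at 2 h and 30.1, 31.4 and 25.9 CPM at 6 h (log2 fold change 0.79). Between 2 and 6 h no member was called in either direction by edgeR or DESeq2, beside 0.17% of all genes. HAS2 alone had an adjusted p under 0.05, beside 6.94% of all genes (log2 fold change −0.77, adjusted p = 0.00062, edgeR). At an unadjusted p under 0.05 there were 11 members, a count for which no share of all genes was taken. EPB41L3 and XYLT1 had log2 fold changes between −0.05 and 0.15 at both times, with overlapping libraries.

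**Figure D3:**
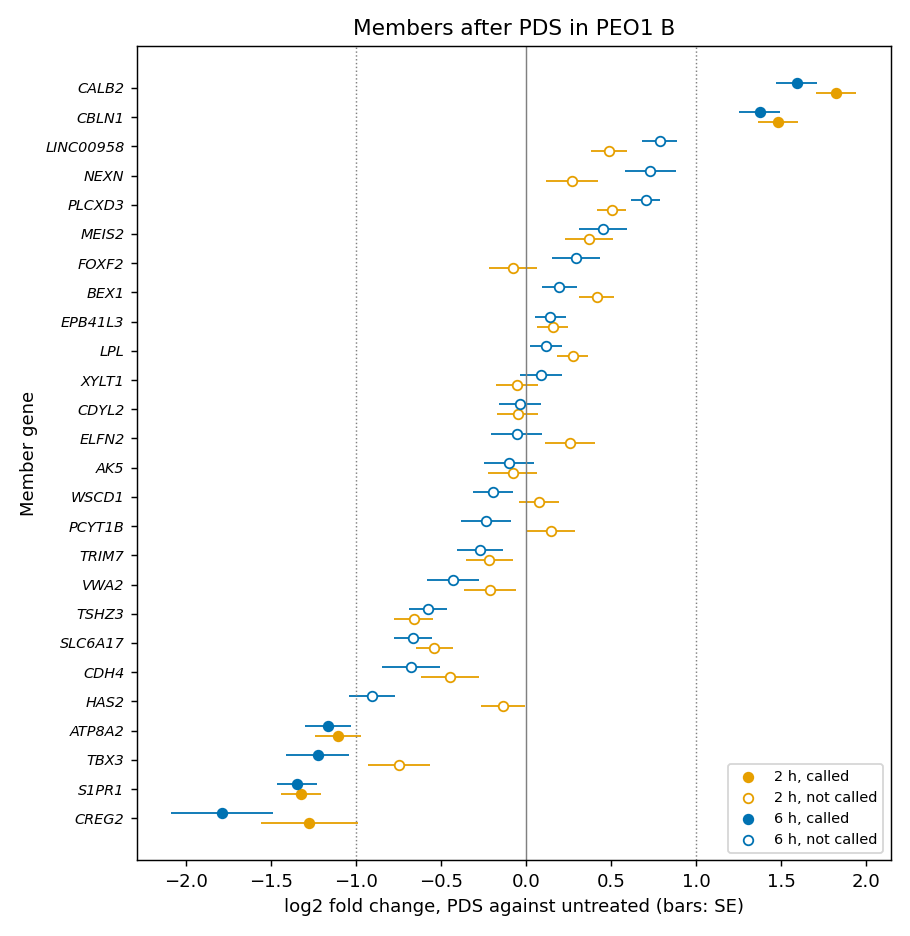
Log2 fold change of 26 of the members in PEO1 B after 2 h (orange) and 6 h (blue) of PDS against untreated, with bars for the SE; filled points were called and dotted lines mark the fold required. CALB2 and CBLN1 lie right of 1 at both times, CREG2, S1PR1 and ATP8A2 left of −1 at both, and TBX3 left of −1 at 6 h.

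The lines were also compared in the PDS-treated libraries, which had no part in choosing the members. Lower calls in PEO4 B than in PEO1 B were made for 27 of 27 members at 2 h and again at 6 h, beside 12.6% and 13.5% of all genes. The rule chose genes far apart between the same lines before treatment, so lower calls were likely from the outset. Of the 27, 15 passed the filter on low counts only through their PEO1 libraries, and the count of lower calls is a description for all 27. Together they took 381.1 to 405.0 CPM in PEO1 B at 2 h against 16.6 to 17.1 CPM in PEO4 B, and 373.6 to 392.1 CPM against 17.6 to 19.2 CPM at 6 h. For no member did the libraries of the lines overlap, which is a description, as the share of all genes without overlap was not taken. The mean level in PEO4 B was under 1% of that in PEO1 B for 11 members at each time, and its median over members was 2.45% at 2 h and 2.52% at 6 h. The closest approach was 37.4% at 2 h, for CREG2, and 36.3% at 6 h, for HAS2.

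In PEO4 B the members were still low after PDS, yet several rose from near 0. At 2 h, 8 members were called higher (29.6%), beside 6.4% of all genes, and 10 at 6 h (37.0%), beside 6.26%, with 7 called at both times. On the PEO4 B libraries alone, 12 of the 27 passed the filter on low counts, and 8 and 10 of these were called higher. A member low before PDS could pass that filter through its treated libraries alone, which favours a higher call. These counts are therefore a description. The lower calls were 1 at 2 h (FOXF2, beside 11% of all genes) and 2 at 6 h (VWA2 among them, beside 16.3%), all on at most 7 reads per library. Without untreated PEO4 B replicate 2, neither FOXF2 at 2 h nor VWA2 at 6 h was called. The members were selected for few reads in the untreated PEO4 libraries that serve as the baseline here, which favours a rise, and medians over the members are not given because 10 of them had at most 3 reads in every untreated PEO4 B library. The A pair alone, which shares no library with this fit, chose 107 genes by the same thresholds, the 27 among them. Of its 105 genes tested in PEO4 B, 37 were higher (35.2%) and 14 lower (13.3%) at 2 h, and 36 (34.3%) and 16 (15.2%) at 6 h. These genes too were chosen for few reads in PEO4, though in other libraries. The filter on low counts favours a higher call for them as well, and how many passed it only through PEO1 was not counted. Their shares are therefore also a description.

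CALB2 had 4, 7 and 2 reads in untreated PEO4 B, 240, 288 and 295 reads at 2 h and 80, 71 and 81 reads at 6 h. As levels these were 0.183, 0.374 and 0.1005 CPM, then 6.53, 8.08 and 6.84 CPM, and then 1.83, 2.08 and 2.31 CPM, so the level was highest at 2 h and every treated library was above every untreated one. The rise was 5.15 ± 0.25 (SE) on the log2 scale at 2 h (adjusted p = 8.5e-15) and 3.40 ± 0.31 at 6 h (adjusted p = 4.9e-10, edgeR). PLCXD3 had 6, 4 and 3 reads before, 70, 60 and 83 at 2 h and 75, 46 and 60 at 6 h, with log2 fold changes of 3.20 and 3.03. MEIS2 had 3, 2 and 0 reads before and 24, 18 and 33 at 2 h, with log2 fold changes of 3.04 and 3.02. CALB2 peaked early, whereas PLCXD3 and MEIS2 stood at like levels at both times.

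S1PR1 and HAS2 were highest at 6 h. S1PR1 had 3, 5 and 2 reads in untreated PEO4 B, 41, 17 and 37 at 2 h and 117, 87 and 106 at 6 h, or 2.68, 2.55 and 3.03 CPM. Its log2 fold change was 2.41 ± 0.41 (SE) at 2 h and 4.18 ± 0.32 at 6 h (adjusted p = 2.9e-11, edgeR). HAS2, the hyaluronan synthase gene, had 5, 7 and 0 reads, then 27, 17 and 41, and 142, 120 and 101 at 6 h (log2 fold changes 1.99 and 4.15). NEXN (chr1:77888624-77943895) had 6, 14 and 4 reads, then 19, 21 and 30, and 156, 87 and 80 at 6 h (log2 fold change 2.98 at 6 h). Its neighbour AK5 (chr1:77282019-77559966) had 0.411, 0.160 and 0.201 CPM before and 1.03, 1.06 and 0.885 CPM at 6 h (log2 fold change 2.05). The other members called at 6 h were ELFN2 (2.62), CBLN1 (1.67) and the chromodomain gene CDYL2 (1.42), and CREG2 (1.76) was called at 2 h and not at 6 h. By position, 20 of the members overlap another annotated gene. Among them are HAS2 and NEXN, with the antisense genes HAS2-AS1 and NEXN-AS1, and also CALB2, PLCXD3, MEIS2, TBX3 and ATP8A2. The strand setting of the counting was not given in the sources used here, so reads of the partners cannot be told apart. Leaving out untreated PEO4 B replicate 2 moved ELFN2 to 5.19 at 2 h and 5.08 at 6 h, HAS2 to 2.71 and 4.87 and NEXN to 3.71, and leaving out replicate 1 moved MEIS2 to 3.68 and 3.67 and CREG2 to 2.42, all still called.

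**Figure D4:**
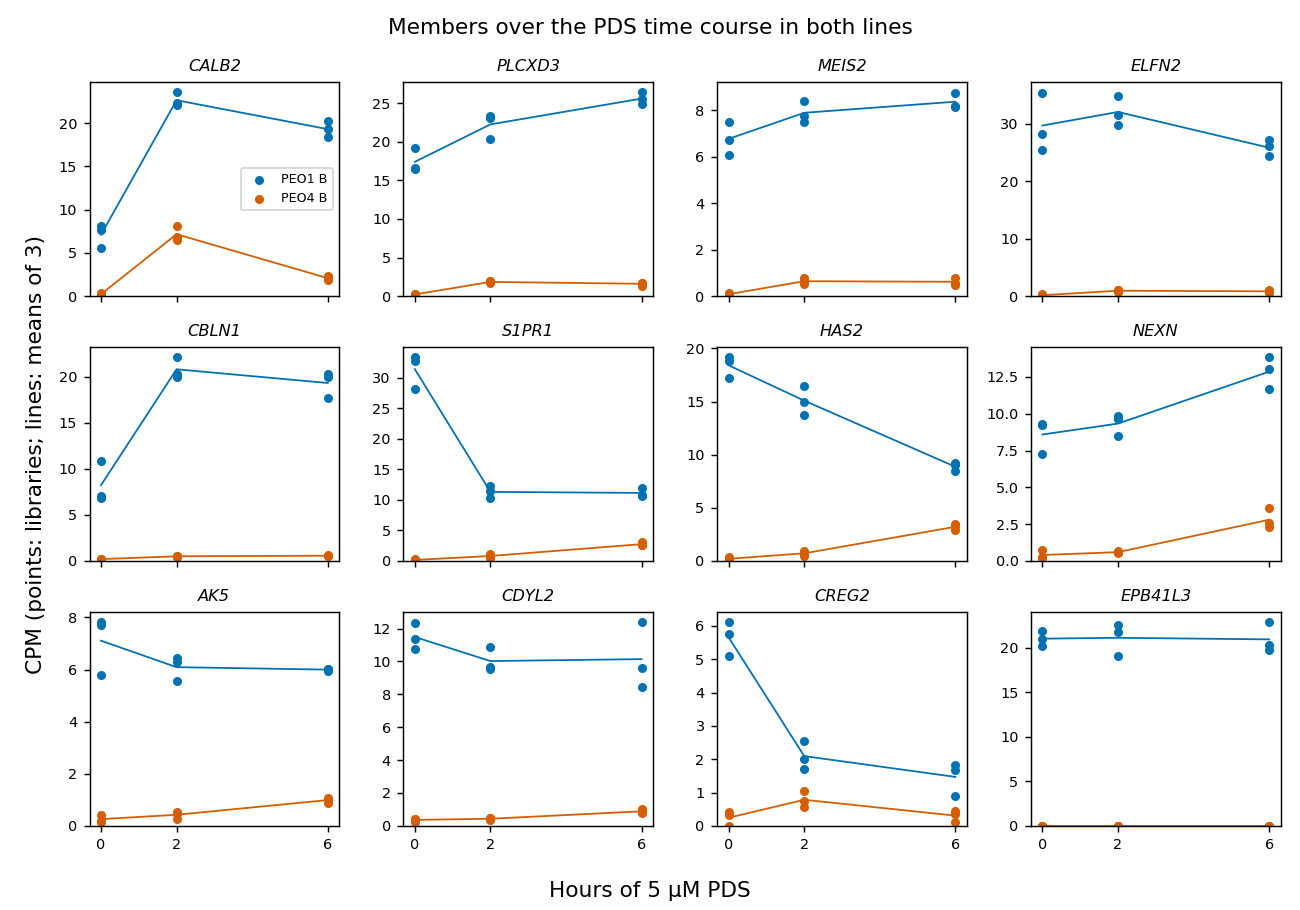
CPM of 12 members over hours of PDS in PEO1 B (blue) and PEO4 B (orange), with points for libraries and lines through the means of 3; each panel has its own vertical axis from 0. The 11 members that rose in PEO4 B are shown with EPB41L3, which stayed at 0, and S1PR1 and HAS2 approach the falling PEO1 B line without reaching it.

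Some members moved in opposite directions in the lines, and the difference of the responses was tested in the same fit as a contrast added after the data were seen. S1PR1, lower after PDS in PEO1 B and higher in PEO4 B, differed by 3.74 ± 0.40 (SE) on the log2 scale at 2 h (adjusted p = 9.1e-08) and by 5.53 ± 0.33 at 6 h (adjusted p = 3.7e-12, edgeR, Benjamini-Hochberg). HAS2 differed by 2.13 ± 0.45 at 2 h and by 5.06 ± 0.35 at 6 h (adjusted p = 4.4e-11, edgeR). CBLN1 rose in both lines, by 1.48 in PEO1 B and 1.47 in PEO4 B at 2 h, and the difference of −0.01 ± 0.45 (SE) does not show that the lines responded alike. These differences use the untreated libraries that selected the members in both lines, high in PEO1 and low in PEO4, which favours a positive difference.

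The wider lists that hold the transcription factors and matrix genes are set here beside all genes, which were also called lower more often than higher after PDS. The list of transcription factors left out HOX genes and symbols such as ZNF. Of its 240 genes tested in PEO1 B, 6 were higher and 34 lower (14.2%) at 2 h, and 7 and 33 (13.8%) at 6 h, beside 6.39% and 6.83% lower of all genes. In PEO4 B, 19 were higher and 58 lower (24.2%) at 2 h, and 16 and 72 (30.0%) at 6 h, beside 11% and 16.3% lower. Their median log2 fold change at 6 h was −0.22 in PEO1 B and −0.48 in PEO4 B, where that of all genes was −0.03 in both lines. The 572 zinc finger factors, listed apart, were called lower less often than all genes. Their shares at 2 and 6 h were 2.27% and 1.75% in PEO1 B, and 4.9% and 5.42% in PEO4 B. More lower calls than among all genes were also seen for channels, with 17.1% in PEO1 B and 29.8% in PEO4 B at 6 h. Of 198 genes of the extracellular matrix and its enzymes, 5 were higher and 20 lower in PEO1 B at 2 h, and 4 and 28 (14.1%) at 6 h. In PEO4 B this list had more higher than lower calls at 2 h, 38 (19.2%) against 33 (16.7%), and 36 (18.2%) against 53 (26.8%) at 6 h, beside 6.4% and 6.26% higher of all genes. XYLT1, HAS2 and VWA2 were called in neither direction in PEO1 B at 6 h.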

How the data were processed

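RNA-seq of PEO1 and PEO4 cells was analysed from 2 tables of raw counts per gene, which the authors deposited after fastp, STAR on hg38 and featureCounts; FastQC is named too, per the submitters' processing notes. The annotation and strand setting are not given in the sources used here. The A libraries were made with a directional polyA kit; the kit of the B libraries is not given in the sources used here. Lines that could not be read as a gene were left out (2 and 1). CPM used the column sums. The members and functional lists were chosen with earlier results of these data known.

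The 18 B libraries were fitted together with edgeR 4.0.16 (R 4.3.3): filterByExpr, TMM factors, group means and the robust quasi-likelihood test (12 residual df), with p-values adjusted by Benjamini-Hochberg over 17020 genes. Genes were called at an adjusted p under 0.05 where the log2 fold change was beyond 1 in either direction. DESeq2 1.42.0, other scalings, filters and a replicate block were alternatives. On simulated data for PEO1 B at 6 h, 195 of 200 changed genes among 16611 were recovered, with 0 false calls. Recovery near the fold asked for, where several calls in PEO1 B lie, was not tested. Every simulated gene had the same spread between replicates, so the 0 false calls do not give the error rate in these data. Replicates are biological by the labels; their counts differed beyond sampling noise (chi-square per degree of freedom 2.13 to 52.1).

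Named were the 10 members highest in PEO1, up to 6 called members each way, the 6 highest in treated PEO4 B, the top of each functional list, those nearest the thresholds and those within 500 kb of each other; others are named once in their list, and relatives and neighbours were chosen after the members were known. A few genes covered by these rules are not reported here. Promoters came from RefSeq, transcript lengths from GENCODE. Floors cover counting error only, while the SEs come from the quasi-likelihood test, which uses the spread between replicates.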

Additional observations from a re-analysis of the deposited data

Results flagged for a closer look

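For some members the response to PDS differed between PEO4 B and PEO1 B by a test of the difference itself (edgeR's quasi-likelihood test, adjusted p under 0.05 over 17020 genes, added after the data were seen). At 2 h, 9 of the 27 did so, among them with log2 differences (PEO4 B minus PEO1 B) of 3.74 for S1PR1, 3.33 for CALB2, 3.03 for CREG2, 2.70 for PLCXD3, 2.66 for MEIS2, 2.49 for ELFN2, 2.13 for HAS2 and 1.05 for TRIM7. At 6 h, 11 did so, among them with log2 differences of 5.53 for S1PR1, 5.06 for HAS2, 2.68 for ELFN2, 2.56 for MEIS2, 2.33 for PLCXD3, 2.26 for CREG2, 2.25 for NEXN, 2.15 for AK5, 1.80 for CALB2 and 1.46 for CDYL2. FOXF2 had 0 reads in every PEO4 B library at 2 h and at most 4 in any untreated one, so no value is given for it. The untreated libraries that selected the members enter each of these differences, and their selection favours a positive one. The share of all genes at this cut was not taken, so the counts are a description of the members.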

How the results depend on the processing

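By adjusted p alone, the calls in PEO1 B became 8 higher and 7 lower at 2 h, 6 higher and 9 lower at 6 h, and 1 lower between 2 and 6 h. With members chosen on the A pair alone (105 tested, a longer list), 13 (12.4%) were lower at 2 h and 18 (17.1%) at 6 h in PEO1 B, 78 (74.3%) and 79 (75.2%) were lower and 10 (9.52%) higher at each time in PEO4 B than in PEO1 B, beside 12.6% and 13.5% lower and 13.9% and 9.52% higher of all genes, and 37 and 36 were higher in PEO4 B after PDS. Thresholds of 10 and 0.5 CPM left 11 members, and those of 5 and 0.25 CPM left 22. Leaving out each replicate number gave 27 to 32 members. Leaving out each library in turn, the counts in PEO1 B and between the lines did not move, and in PEO4 B the higher calls ranged from 8 to 10 at 2 h and from 10 to 11 at 6 h, and the lower ones from 0 to 2 and from 0 to 3. Scaling by library totals shifted the median of all genes in PEO1 B at 6 h from −0.03 to −0.17 and gave 5 lower calls there in place of 4. Fitting only the groups compared left 12 members tested in PEO4 B, so the lower calls there went to 0 at both times. No fold change of a called member turned its sign.

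The replicate numbers did not pair the samples (correlation of same-numbered deviations −0.185 to 0.160, median 0.00293, over 45 pairs); with a replicate block, PEO1 B had 2 higher and 3 lower calls at 2 h, and 2 and 4 at 6 h, and PEO4 B had 8 and 10 higher calls. Low reads limit PEO4 values: 10 members had at most 3 reads in every untreated PEO4 B library.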
